A study of Homo sapiens with 2 samples.

Results

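The prostaglandin pathway around cyclooxygenase 2 was followed through 10 genes: PLA2G4A, PTGS1, PTGS2, PTGES, PTGES2, PTGES3, PTGER2, PTGER4, PTGR1 and HPGD. Every probe set whose only gene symbol in the array annotation was one of these was taken, which gave 21 probe sets of 54675 on the array, and 10 of the 19775 gene symbols that a probe set named alone. The list was chosen from earlier results of this same comparison, in which PTGS2 had stood out, so the values of these genes are a description and none was tested. The arrays held total RNA of PLC/PRF/5, an established human hepatocellular carcinoma (HCC) cell line, with 1 Affymetrix U133 array in each of 2 groups. The first group, chemoresistant hepatospheres, was PLC/PRF/5 grown as spheroids under combined cisplatin and doxorubicin. The second, differentiated cells, came from spheroids that received fetal bovine serum (FBS) and attached to the dish. All cells were of this 1 line; spheroid growth, serum and attachment differed together between the groups, and whether the differentiated cells had met the drugs is not stated in the labels. With 1 array a group there is no replicate error, and 2 RNA samples are compared, not the conditions.

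Prostaglandins are short-lived lipid signals. Cytosolic phospholipase A2 frees arachidonic acid from membranes, a cyclooxygenase turns it into prostaglandin H2, and a terminal synthase makes prostaglandin E2, which acts through G protein-coupled EP receptors and is then inactivated by a dehydrogenase and a reductase. Of the cyclooxygenases, PTGS1 is present in many tissues without a stimulus, whereas PTGS2 is an early response gene induced by cytokines, growth factors and stress, and is studied in liver cancer for its links to inflammation and growth.

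Values are MAS5 signals, a brightness per probe set on a linear scale without a physical unit. A floor was set at 84.1, the higher of the median signals of the arrays (70.6 in differentiated cells, 84.1 in hepatospheres). A signal under it was raised to it before a fold was taken, so that such a fold is a lower bound, written "at least". Each gene was represented by its brightest probe set, and log2 differences are hepatospheres minus differentiated cells. On the poly(A) control RNAs, which are added to the sample before labelling, hepatospheres read 2.04-fold higher in the median of 27 probe sets. The ACTB ratio of 3' to 5' signal was 1.48 in differentiated cells and 2.64 in hepatospheres, while the GAPDH ratio was 0.987 and 1.04. The part of these differences in the values below was not tested. Every direction given is relative to the bulk of genes: scaled to the poly(A) controls, the median log2 difference of all genes moved from 0.05 to -0.92, and 6 lists of other pathway genes described below then had medians between -1.02 and -0.29.

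The regions in front of 3 members are shown because together their products carry arachidonic acid to prostaglandin E2 and all 3 genes read higher in hepatospheres. Each is the 250 bases before the annotated start in RefSeq, build GRCh38.p14, read 5' to 3' on the gene's strand: PTGS2 at chr1:186680424-186680673 on the minus strand, PLA2G4A at chr1:186828699-186828948 on the plus strand and PTGES at chr9:129753043-129753292 on the minus strand. Capitals mark matches, on either strand, to 6 patterns. These were TATAAA for the core promoter box, TGACG for the shorter form of a cyclic AMP response element, TTNNGNAA for C/EBP factors, TGANTCA for AP-1, GCGTGGGCG for EGR1 and ACGTG for the core of a hypoxia response element. None of them overlapped in the windows shown.
PTGS2: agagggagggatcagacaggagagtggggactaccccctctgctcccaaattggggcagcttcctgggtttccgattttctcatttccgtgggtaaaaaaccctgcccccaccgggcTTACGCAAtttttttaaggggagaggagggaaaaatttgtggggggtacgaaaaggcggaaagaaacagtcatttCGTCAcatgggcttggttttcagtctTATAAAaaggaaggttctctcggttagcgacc
PLA2G4A: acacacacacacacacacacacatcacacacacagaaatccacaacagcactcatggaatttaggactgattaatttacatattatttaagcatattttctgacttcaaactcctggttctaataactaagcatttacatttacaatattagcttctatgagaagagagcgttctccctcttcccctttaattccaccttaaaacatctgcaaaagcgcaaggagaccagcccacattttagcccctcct
PTGES: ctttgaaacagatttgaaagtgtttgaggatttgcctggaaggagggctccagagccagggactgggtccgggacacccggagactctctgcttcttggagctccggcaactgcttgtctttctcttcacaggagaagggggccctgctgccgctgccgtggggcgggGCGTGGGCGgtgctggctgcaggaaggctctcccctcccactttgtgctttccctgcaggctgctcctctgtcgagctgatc

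In the PTGS2 window, TATAAA lay at -32 to -27 from the start, the cyclic AMP pattern as its reverse complement CGTCA at -58 to -54, and the C/EBP pattern as TTACGCAA at -133 to -126. These patterns are short: among 35116 promoter windows of that length, 10.7% held TATAAA, 21.2% TGACG and 33.2% the C/EBP pattern. In the PTGES window the EGR1 pattern lay at -82 to -74, which 0.72% of windows held. One of the 3 windows of PTGES2 held the EGR1 pattern too. None of the 6 patterns occurred in the PLA2G4A window, where 38.8% of bases were G or C, against 50.4% for PTGS2 and 61.2% for PTGES. The AP-1 pattern was in 6.57% of windows and the hypoxia core in 18.5%, and neither was in the 3 windows shown. A match describes letters, and no binding was measured here. Patterns of other factors, NF-kB among them, are not marked by capitals.

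The members above the floor on both arrays with the largest differences were those of arachidonate release and prostaglandin H2 synthesis; the members with lower bounds cannot be ranked against them. PLA2G4A, the calcium-dependent cytosolic phospholipase A2 that frees arachidonic acid, read 852 in differentiated cells and 12995 in hepatospheres on its only probe set. That is 15.2-fold higher, with both signals above the floor. PTGS2, cyclooxygenase 2, read 479 in differentiated cells and 10428 in hepatospheres on its brighter probe set, 21.8-fold higher. Its other probe set read 66.6 and 1543, at least 18.3-fold higher. The pair thus stood at 4.45 and at least 4.197 on the log2 scale. Among 8865 genes above the floor on both arrays and with all probe sets in one direction, PTGS2 ranked 12 from the highest. Among all 12766 genes that reached the floor, with bounds taken at their floored value, it ranked 30.

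These sizes cannot be ranked against PTGS1, the constitutive cyclooxygenase, which has only lower bounds. Its 4 probe sets read 43.9, 12.3, 61.6 and 18.7 in differentiated cells, each under the floor. In hepatospheres the same probe sets read 154, 124, 82.5 and 8.96. The first pair thus passed the floor in hepatospheres, by at least 1.83-fold and at least 1.48-fold, and the last pair stayed under it on both arrays. The size for PTGS1 hung on the floor: its log2 difference of 0.87 became 1.63 under a floor at the 40th percentile of signal and 0.01 under one at the 60th.

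**Figure D1:**
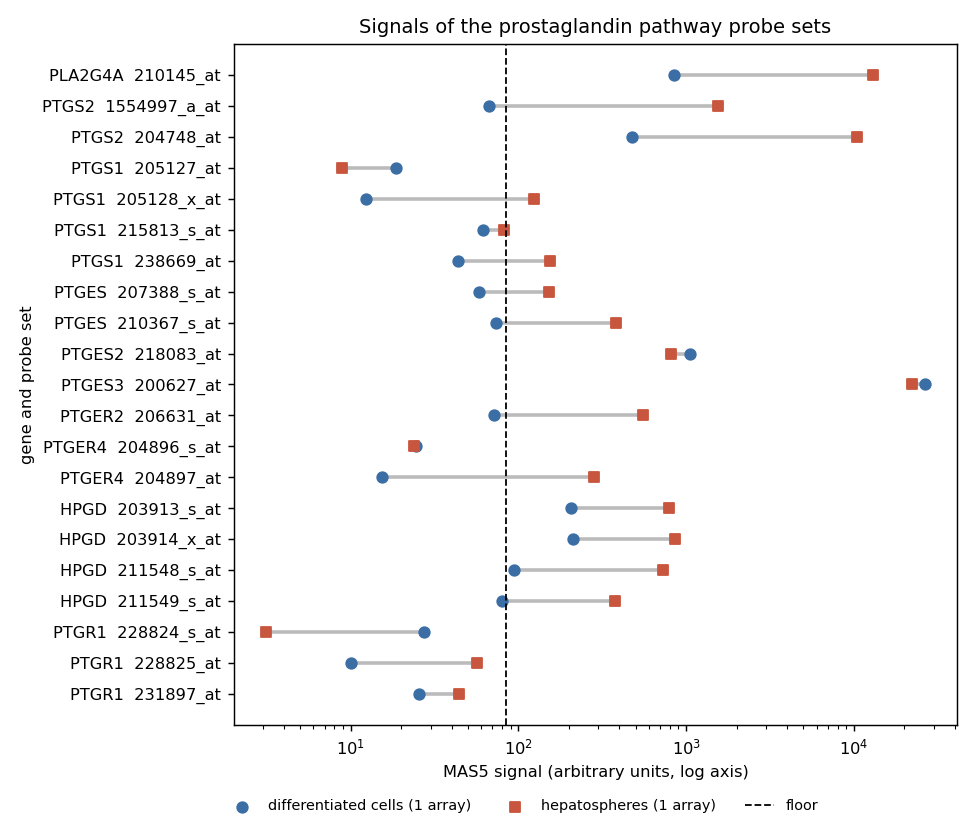
MAS5 signal (log axis) of each of the 21 probe sets of the 10 genes, 1 point for the array of each group, with the floor of 84.1 as a dashed line. PTGS2, PLA2G4A and HPGD lie to the right in hepatospheres on every probe set, PTGES2 and PTGES3 have nearly the same signal on both arrays, and PTGR1 lies left of the line throughout.

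The terminal synthases of prostaglandin E2 split. PTGES, the inducible microsomal synthase often coupled to cyclooxygenase 2, read 73.7 in differentiated cells and 383 in hepatospheres, at least 4.55-fold higher. Its dimmer probe set read 58.5 and 152, at least 1.81-fold higher. Both probe sets thus passed the floor only in hepatospheres, and their sizes, as lower bounds, cannot be compared. PTGES2, a second membrane-linked synthase, read 1054 and 813, a log2 difference of -0.38. PTGES3, the cytosolic synthase that also serves as the HSP90 co-chaperone p23, read 26350 and 22224, a log2 difference of -0.25. PTGES2 and PTGES3 kept to less than 2-fold except when arrays were scaled to the poly(A) controls, where they stood at -1.40 and -1.27.

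Both receptors on the list pass prostaglandin E2 signals to cyclic AMP, and both came above the floor in hepatospheres alone. PTGER2, the EP2 receptor, read 71.6 in differentiated cells and 555 in hepatospheres, at least 6.60-fold higher. PTGER4, the EP4 receptor, read 15.4 and 282 on one probe set, at least 3.35-fold higher. Its second probe set read 24.6 and 23.9, under the floor on both arrays, so for PTGER4 the probe sets did not show the same thing. Under a floor at the 60th percentile PTGER4 had a log2 difference of 0.89, and with scaling to the poly(A) controls at 0.97.

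Of the inactivating enzymes, HPGD, the dehydrogenase that oxidises prostaglandin E2, was higher on all 4 probe sets. They read 211, 205, 94.6 and 80.2 in differentiated cells and 855, 794, 725 and 376 in hepatospheres, in the same order. The brightest gave 4.05-fold, and the 4 lay between 1.95 and 2.94 on the log2 scale. HPGD stood at 0.99 when scaled to the poly(A) controls. PTGR1, the prostaglandin reductase that acts after HPGD and also inactivates leukotriene B4, was under the floor on all 3 probe sets. These read 27.3, 10.1 and 25.6 in differentiated cells and 3.16, 56.7 and 44.2 in hepatospheres, so no fold is given.

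Over the 10 genes, 9 reached the floor on at least 1 array; of these, 6 read higher in hepatospheres by 2-fold or more and 0 read lower by as much. PTGES2 and PTGES3 were within 2-fold, and the bound of PTGS1, at least 1.83-fold, did not settle on which side of 2-fold it lies. Among all 12766 genes that reached the floor, 12.5% were at least 2-fold higher and 8.83% lower. Those 1601 and 1127 genes became 1181 and 1902 with the arrays centred on their medians and 401 and 5746 with poly(A) scaling. Because the genes were chosen on this comparison, nothing is read from these shares. The median log2 difference was 2.02 over the 9 genes, with bounds taken at their floored value, and 0.05 over all genes. By probe set, 15 of 21 reached the floor, 7 of them on both arrays and 8 in hepatospheres alone, and 10 were at least 2-fold higher and 0 lower. Over all 23825 probe sets with 1 gene symbol that reached it, these shares were 11.6% and 9.59%. The 9 included 4 genes with only a lower bound (PTGS1, PTGES, PTGER2 and PTGER4), which entered through their signal in hepatospheres and could only be higher.

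**Figure D2:**
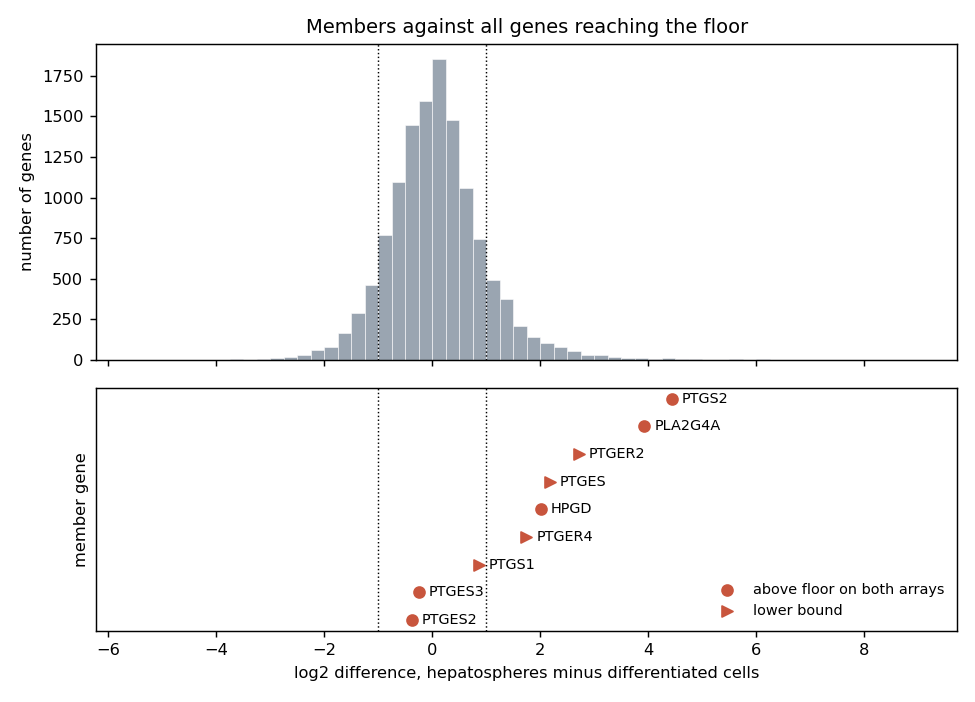
Top, number of genes by log2 difference (hepatospheres minus differentiated cells) for the 12766 genes reaching the floor. Bottom, the 9 measured members on the same axis, with triangles for lower bounds; dotted lines mark 2-fold, and PTGS2 at 4.45 and PLA2G4A at 3.93 lie farthest to the right of the values plotted, and the true place of a triangle may be farther right.

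PTGS2 and PLA2G4A are neighbours on chromosome 1. In RefSeq gene order only PACERR, a noncoding RNA, lies between them, and no probe set named it alone. Within 5 genes to either side, ODR4 was the only gene that reached the floor: its probe sets read 1329 and 169 in differentiated cells and 2507 and 217 in hepatospheres, 0.92 and 0.36 on the log2 scale. PDC, a phosducin gene, was under the floor, at 5.88 and 36.2, and the others had no probe set that named them alone. A wider window, chosen after these values were seen, took the 10 measured genes on each side. Of these 20 genes, 4 were at least 2-fold higher and 1 lower, with a median of 0.26. Over all genes the shares were 12.5% higher and 8.83% lower. The higher ones were BRINP3 (11.7 in differentiated cells and 199.99 in hepatospheres, at least 2.38-fold), its divergent transcript BRINP3-DT (9.74 and 185, at least 2.20-fold), RGS2 (790 and 1634) and the potassium channel gene KCNT2 (117 and 642). The first 3 follow PLA2G4A directly among measured genes. On the other side, C1orf21 (650 and 294) was the lower one. Among the 17 neighbours above the floor on both arrays KCNT2 was highest, at 2.45. BRINP3 and BRINP3-DT have only lower bounds and cannot be ranked against it, PTGS2 or PLA2G4A.

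**Figure D3:**
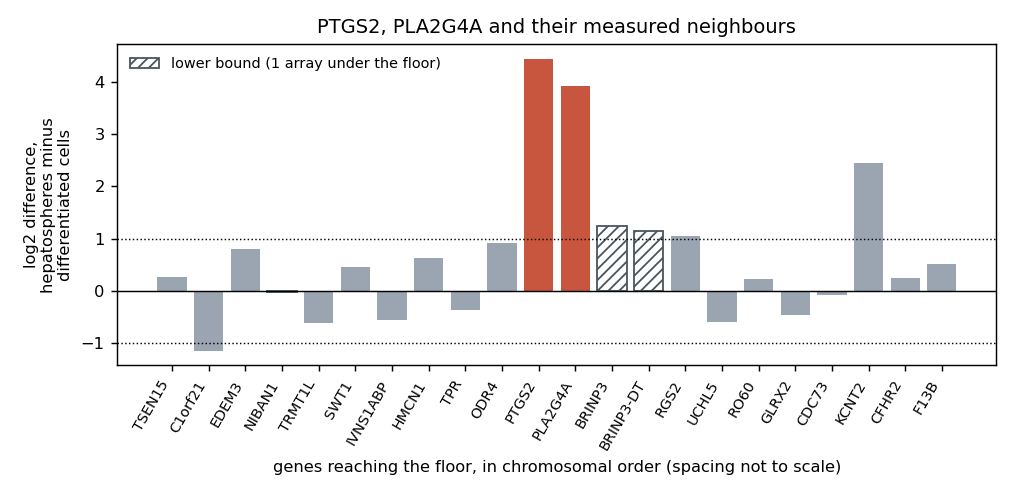
Log2 difference (hepatospheres minus differentiated cells) of PTGS2, PLA2G4A and the 10 genes reaching the floor on each side, in chromosomal order with spacing not to scale. The 2 coloured bars reach 4.45 and 3.93, grey bars without hatching lie between -1.15 and 2.45, and hatched bars (BRINP3, BRINP3-DT and NIBAN1) are lower bounds on the size.

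In the ranking of those 8865 genes above the floor on both arrays, the 3 next above PTGS2 were BEX5 (22.2-fold), ABCA8 (23.9-fold) and the galectin LGALS1 (27.2-fold). The 3 next below it were the muscle enolase ENO3 (21.7-fold), the adenylosuccinate synthase ADSS1 (21.7-fold) and the carboxypeptidase CPB2 (21.5-fold). Likeness here is the place in that order of log2 differences alone, and genes farther down the order can lie nearer in value than LGALS1. BEX5, ADSS1, ABCA8 and ENO3 read only 87.8, 85.9, 96.4 and 109 in differentiated cells, near the floor.

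Other enzymes that supply arachidonic acid were mixed, 4 of 21 measured genes at least 2-fold higher and 1 lower, with a median of 0.22. Beside this count and those of the lists below stand the shares over all genes, 12.5% higher and 8.83% lower. These counts were 0 higher and 8 lower with scaling to the poly(A) controls; 2 were higher with a floor at the 60th percentile and 1 without shared-sequence probe sets. MGLL, the monoacylglycerol lipase that can also feed arachidonate into this pathway, was 7.53-fold lower in hepatospheres, at 282 against 2122. The phospholipases PLA2G4C (48.4 and 221) and PLA2G2A (25.1 and 210) were at least 2.62-fold and at least 2.49-fold higher. ELOVL5, a polyunsaturated fatty acid elongase, read 5522 and 16756, but its probe sets ran from -0.04 to 2.88 on the log2 scale. MBOAT7, which returns arachidonate to phosphatidylinositol, read 1569 and 3222, and its probe sets ran from -0.06 to 1.04. ACSL4, which activates arachidonate, read 2854 and 2846.

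A list of synthases and reductases of the other prostanoids, which also held the chaperones HSP90AA1 and HSP90AB1, had 1 of 12 measured genes higher, 0 lower and a median of -0.0044. With scaling to the poly(A) controls 0 were higher and 6 lower, and without a floor 2 were higher and 1 lower. The one higher was PTGDS, a prostaglandin D2 synthase, at 89.3 and 227, and its probe sets ran from 0.10 to 1.35. Prostacyclin synthase PTGIS (42.1 and 59.2), thromboxane synthase TBXAS1 (32.3 and 39.6) and HPGDS (20.1 and 8.16) were under the floor on both arrays. AKR1C3, which can make prostaglandin F2-alpha, read 28692 and 28755. The reductase PTGR2 read 95.7 and 88.8, near the floor. PTGR3 (18.8 and 108) has only a lower bound, at least 1.29-fold higher, so its side of 2-fold is not settled.

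Among the other prostanoid receptors and their transport and signalling genes, 0 of 15 were called higher, 1 was lower and the median was 0.20. PTGER1, GNAS and ADCY7 have only a lower bound on how much higher they read, so their side of 2-fold is not settled: 2 genes were higher with a floor at the 40th percentile and 4 without a floor. With scaling to the poly(A) controls 0 were higher and 5 lower. PTGER1, the EP1 receptor, read 18.8 and 129, at least 1.53-fold higher, and PTGER3, the EP3 receptor, was under the floor (49.3 and 38.8). PTGDR, PTGDR2, PTGFR and PTGIR were under the floor as well, and so was the prostaglandin uptake carrier SLCO2A1 (9.76 and 48.2). The lower gene was ARRB1, an arrestin, at 903 and 424, with probe sets from -1.40 to 1.25.

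The list for the lipoxygenase and leukotriene branch, the alternative use of arachidonic acid, also held the epoxide hydrolases EPHX1 and EPHX2. It had 1 of 10 measured genes higher, 0 lower and a median of 0.26. ALOX5AP (17.3 and 152) and LTB4R (74.2 and 132) have only lower bounds, and 4 genes were higher without a floor; with scaling to the poly(A) controls 0 were higher and 1 lower. ALOX5 (50.2 and 61.1), ALOX12, ALOX15 and LTC4S lay under the floor on both arrays. The gene called higher was EPHX1, an epoxide hydrolase and not a lipoxygenase, at 2.91-fold (2338 and 6793). The leukotriene A4 hydrolase LTA4H read 5891 and 6235.

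Factors known to act on PTGS2 transcription or on the decay of its mRNA went both ways, 6 of 29 higher and 4 lower, with a median of 0.01. With scaling to the poly(A) controls 2 were higher and 15 lower. The AP-1 subunits JUN (1648 and 8424) and FOS (66.3 and 337) were 5.11-fold and at least 4.004-fold higher. The NF-kB subunit gene NFKB2 (281 and 1003) was 3.57-fold higher, but its second probe set (316 and 518) stood at 0.71, and NFKB1 (558 and 429) stood at -0.38. ZFP36, tristetraprolin, which promotes decay of AU-rich mRNAs, was 3.21-fold higher (1556 and 4992). ELAVL1, HuR, which stabilises such mRNAs, was within 2-fold at -0.59 (6340 and 4227). Other RNA-binding genes of the list differed in direction. ZFP36L1 stood at 1.44, HNRNPD at -0.87 (13779 and 7526) and KHSRP at -1.01 (5575 and 2766). The probe sets of KHSRP ran from -1.05 to 0.04. CEBPA was 3.67-fold lower (5955 and 1624), whereas CEBPB stood at 0.29 (11400.4 and 13903). EGR1 was 3.06-fold higher (471 and 1440), with probe sets from 0.86 to 1.74. Its pattern lies in the PTGES window and also in a window of PTGES2, which stood at -0.38. A link of EGR1 to either gene was not tested. RBM3, an RNA-binding protein, read 8565 and 2175, but its probe sets ran from -1.98 to 0.14.

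Genes that cyclic AMP can induce below EP2 and EP4 were higher in 7 of 18 and lower in 1, with a median of 0.74. PCK1, the gluconeogenic enzyme, read 138 and 2740, 19.9-fold higher. The phosphatase DUSP1 (5579 and 19371) was 3.47-fold, the phosphodiesterase PDE4A (227 and 591) 2.60-fold and the growth factor VEGFA (2186 and 5459) 2.50-fold higher. The EGF receptor ligands EREG (1802 and 4256) and HBEGF (132.6 and 308) were 2.36-fold and 2.32-fold higher. The probe sets of a gene differed in size: those of DUSP1 ran from 0.30 to 1.80 on the log2 scale. Those of EREG ran from 0.42 to 1.24, of HBEGF from 0.31 to 1.22 and of VEGFA from 1.26 to 2.98. PCK1 and PDE4A each had 1 probe set that reached the floor. The lower gene was CREM (1236 and 603), itself a cyclic AMP response factor, at -1.04, with probe sets from -1.04 to 0.87. The phosphodiesterases PDE4D (1352 and 689) and PDE4B (395 and 244) stood at -0.97 and -0.70, opposite in sign to PDE4A. Each of these genes answers to other signals too. NR4A1, a common cyclic AMP target, read 960 and 902. The counts were 4 higher and 2 lower with median centring, and 1 higher and 6 lower with scaling to the poly(A) controls. Without shared-sequence probe sets 5 were higher and 1 lower, and the median was 0.34. Over all genes 12.5% were higher and 8.83% lower.

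**Figure D4:**
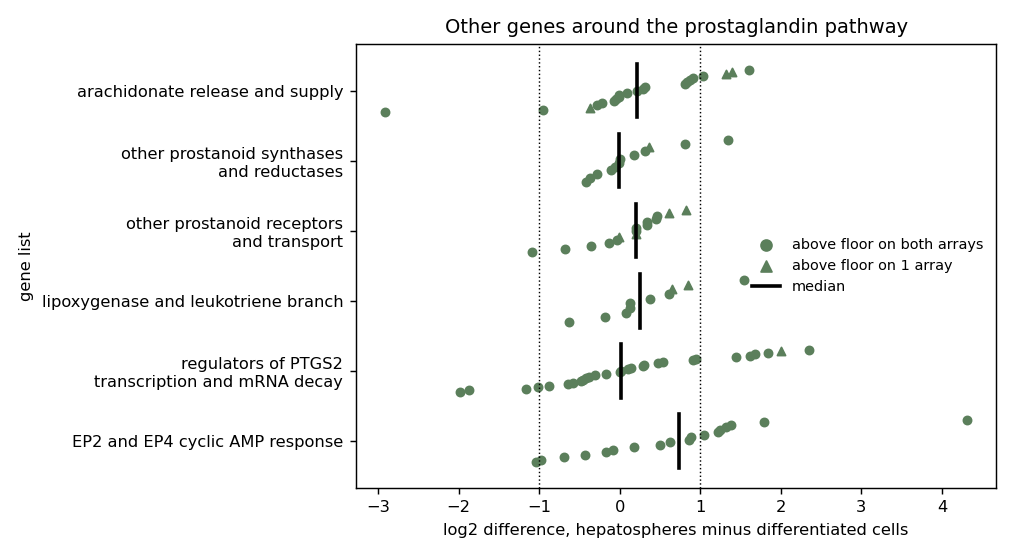
Log2 difference (hepatospheres minus differentiated cells) of each measured gene in 6 lists around the pathway, with a black bar at each list's median; triangles are genes above the floor on 1 array, and dotted lines mark 2-fold. Medians lie between -0.0044 and 0.26 except for the cyclic AMP list at 0.74, and MGLL (-2.91) and PCK1 (4.31) lie farthest out. Without shared-sequence probe sets, not plotted, the median of the cyclic AMP list was 0.34.

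PTGS2 is strongly expressed by stromal and inflammatory cells, so markers of such cells are given. Both samples were of 1 carcinoma cell line, so a marker's signal here does not show that such cells were present. Hepatocyte markers were all above the floor, 5 of 11 higher, 1 lower and 5 within 2-fold. ALB, one of the higher, read 10276 and 27887. The lower one was AFP, at 2451 and 433, 5.66-fold lower. APOA1 (3153 and 2699) and APOB (16827 and 18551) were among those within 2-fold. Of 10 fibroblast markers, 5 reached the floor and 2 were at least 2-fold higher, and their summed signal was 521 in differentiated cells and 4274 in hepatospheres. In hepatospheres most of that sum was LUM, lumican, at 1.14 and 2677, and COL3A1 at 42.6 and 679. COL1A1 read 290.2 and 471, whereas PDGFRA, PDGFRB, FAP, POSTN and COL1A2 were under the floor on both arrays. Of 9 macrophage and leukocyte markers, 4 reached the floor and 0 were 2-fold apart, with PTPRC at 25.1 and 4.38 and CD14 at 37.1 and 36.4; the sum was 6714 and 10928, most of it LYZ. Of 10 endothelial markers PECAM1 alone reached the floor (3388 and 3787). Whether LUM, COL3A1 and PTGS2 were higher in the same cells of the line was not tested. In a bulk sample, more cells expressing a gene and more RNA per cell cannot be told apart.

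**Figure D5:**
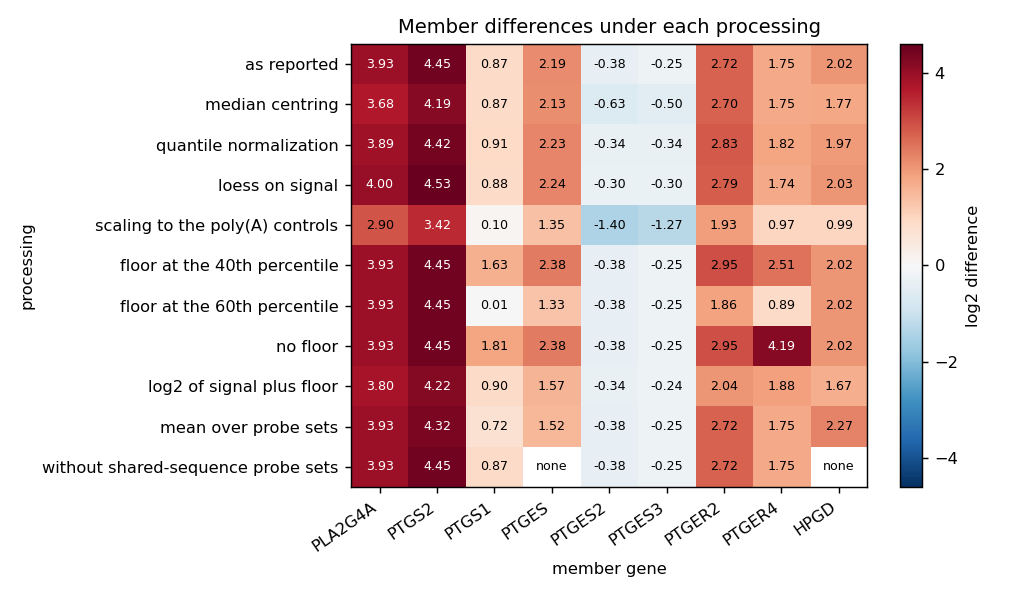
Log2 difference (hepatospheres minus differentiated cells) of the 9 measured members, in columns, as reported in the top row and under 10 other processings in the rows below; "none" marks genes without a probe set left. PTGS2 stays between 3.42 and 4.53 and PLA2G4A between 2.90 and 3.998, while PTGER4 runs from 0.89 to 4.19 and PTGS1 from 0.01 to 1.81.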

How the data were processed

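The authors deposited linear intensity values made with MAS5, per the submitters' processing notes; MAS5's version, scaling target and detection calls were not given in the sources used here. MAS5 subtracts background and mismatch brightness, so weak signals are noisy. The 2% trimmed mean was 499.9 on both arrays. Groups came from the source names in the labels. Of 54675 probe sets, 41091 carried 1 gene symbol in GEO's annotation, 1801 several, 11721 none and 62 were controls. All 10 members matched a RefSeq gene table of GRCh38.p14, used for names and gene order, and RefSeq promoter windows.

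From the signals, floored log2 differences and 2-fold counts were computed; no test is possible with 1 array per group, and the number of arrays limits precision. The counting code was run on simulated data. How accurate the counts are for signals near the floor, as for PTGS1, PTGES, PTGER2 and PTGER4, was not tested. The members and lists were chosen with earlier results of these data known. Named from each list were up to 6 genes at least 2-fold apart, and the 3 genes to either side of PTGS2 in difference; other genes named from the lists, such as EGR1 and PDE4D, and the wider chromosomal window were chosen after their values were seen. Alternatives were median centring, quantile normalization, loess (span 0.3), scaling to the poly(A) controls, a floor at the 40th or 60th percentile, none at all, adding the floor to the signal before log2, averaging a gene's probe sets, and leaving out shared-sequence probe sets (suffix _s_at, _x_at or _a_at). A motif for NF-kB was also searched in the promoter windows; it matched in most windows, that of PTGS2 included, and was left out after its matches were seen. Python 3.11.15, numpy 2.4.6, pandas 2.3.3, statsmodels 0.14.6 and matplotlib 3.10.9 were used.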

Additional observations from a re-analysis of the deposited data

How the results depend on the processing

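No paired analysis was possible because each group has 1 array. Of 10 alternatives, scaling to the poly(A) controls moved the median of all genes from 0.05 to -0.92 on the log2 scale, PTGS2 to 3.42, and the members at least 2-fold lower from 0 to 2 (PTGES2 and PTGES3), with 4 higher. Leaving out the floor moved PTGER4 from 1.75 to 4.19 and PTGS1 from 0.87 to 1.81. Otherwise 4 to 7 members were at least 2-fold higher and 0 lower. The 4 without shared-sequence probe sets reflects that PTGES and HPGD then had no probe set left. PTGS2 ranged from 3.42 to 4.53 and PLA2G4A from 2.90 to 3.998. PTGR1 had a value only without a floor, 0.79. List medians moved below 0 under the poly(A) scaling, to between -1.02 and -0.29. All genes 2-fold apart then numbered 401 higher and 5746 lower, 4232 and 2431 without a floor, and 1902 lower with median centring. Signals near the floor limit PTGS1, PTGES, PTGER2 and PTGER4 to bounds.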
